A study of Mus musculus with 4 samples.

Results

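The cytokine receptors of blood progenitors were followed across 4 one-colour microarrays as 9 genes, Kit, Flt3, Epor, Csf1r, Csf3r, Csf2ra, Csf2rb, Il3ra and Il7r. They are 9 of the 21154 genes that could be named, and were chosen by symbol, as every non-control probe whose transcript RefSeq assigns to one of them. This gave 13 probes of the 28026 that carry 1 gene symbol. The study compared LSK cells and MEP cells from mice given the drug JQ1 or its solvent DMSO. JQ1 blocks the BET proteins, which bind acetylated chromatin through bromodomains and help start transcription. LSK cells are the Lineage-negative, Sca-1-positive, c-Kit-positive stem and multipotent progenitors of the bone marrow, and MEP cells are the progenitors of megakaryocytes and red cells. The groups were LSK cells after DMSO or JQ1 and MEP cells after DMSO or JQ1, each with 1 array.

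All 4 groups were C57BL/6 and had the genotype JAK2V617F/Ezh2Δ/Δ, the DMSO controls included. JAK2V617F is an activating mutation of the kinase that many of these receptors signal through, and drives myeloproliferative neoplasms. Ezh2 is the histone methyltransferase of Polycomb repressive complex 2, and was deleted through a floxed gene and the inducible Cre-ERT2. Total marrow of such donors had been transplanted into wild-type CD45.1+ mice after lethal irradiation, and JQ1 or DMSO was given for 2 weeks after the deletion, with cells sorted directly at its end. No group lacked the mutation or kept Ezh2, so no value below is set against normal cells. The number of mice behind an array, their age and the MEP gate are not given in the sources used here.

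Blood progenitors read their surroundings through 2 receptor families. Kit, Flt3 and Csf1r are receptor tyrosine kinases, which carry their own kinase and bind stem cell factor, FLT3 ligand, and colony-stimulating factor 1 with interleukin-34. The class I cytokine receptors have no kinase of their own and borrow Janus kinases. Epor and Csf3r pair with themselves and signal through JAK2, which is why mutant JAK2 acts through them, whereas Csf2ra and Il3ra each pair with the common beta chain Csf2rb, and Il7r pairs with Il2rg. As progenitors commit, each lineage keeps its own receptors, Epor in the red cell line, Csf3r in neutrophils, Csf1r in monocytes and Il7r in lymphoid cells.

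A level below is the log2 of a probe's processed signal relative to the 75th percentile of its array, so that 0 is the 75th percentile and each unit is a doubling. Levels of different probes cannot be set against each other. A difference between arrays has the median measured gene of its comparison subtracted, and a gene was called higher or lower when it differed by at least 2-fold, which is 1 log2 unit. Each group has a single array, so nothing was tested and no difference has a replicate check. Array error was taken as the SD of the difference between separate probes of the same gene. For the JQ1 course it was 0.26 log2 in LSK and 0.39 in MEP cells. Between the cell types it was 0.37 after DMSO and 0.27 after JQ1. This error does not cover mice, sorts or labelling. The 4 levels of a gene were also ordered after each array's median-gene offset was removed, and neighbours in that order were said to differ beyond array error when at least 2 times this SD apart.

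The arrays had 25156 to 29603 of 55681 probes well above background, and 0 saturated spots. All 13 receptor probes were well above background on all 4 arrays, with a scanner error of 10.0% to 11.2% of the signal. The DMSO MEP array stood apart, with correlations of 0.973 to 0.977 with the other arrays, against 0.991 between both LSK arrays and 0.979 and 0.982 between JQ1 MEP and them. It is the only array of its group, so neither the JQ1 comparison in MEP nor the cell types under DMSO can be shown without it, whereas MEP against LSK under JQ1 does not use it. Ly6a, which encodes Sca-1, read 4.49 and 4.28 on the DMSO and JQ1 LSK arrays and -0.32 and 0.21 on the MEP arrays. Of 19 erythroid markers on the array, leaving out Epor itself, 11 of 14 measured were higher in MEP under DMSO and 11 of 13 under JQ1, while the globin gene Hbb-bt was lower under DMSO (-1.45) and read -0.80 under JQ1. Markers of other cells were also present on the LSK and the MEP arrays, and their values are given beside the receptors they bear on. Ezh2 levels were 3.36 and 3.43 on DMSO LSK and JQ1 LSK, and 3.31 and 3.69 on DMSO MEP and JQ1 MEP. Its probe may lie outside the deleted exons, so these readings do not check the deletion.

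The cell types differed in 4 receptors after DMSO and in 2 after JQ1, and the JQ1 course in 1 receptor per cell type. Under DMSO, Epor was higher in MEP than in LSK cells, and Flt3, Csf1r and Il7r were lower. Of all measured genes 5.68% were higher and 4.31% lower in that comparison, so 1 higher and 3 lower of 9 receptors stood against those shares. Under JQ1, Epor was again higher in MEP cells and Flt3 again lower, where 3.92% of measured genes were higher and 4.01% lower. JQ1 against DMSO in LSK called only Csf1r, which was lower, among 0.544% higher and 3.22% lower of all genes. In MEP it called only Csf3r, also lower, among 0.981% higher and 5.77% lower. With 1 called receptor of 9 each, nothing is read from these counts. With spike-in scaling and no centring, MEP against LSK after DMSO called Epor, Csf3r and Csf2ra, all higher, and none of the 3 lower ones, and that scaling puts the median gene at 0.88 log2. The median difference of the 9 receptors was -0.13 in LSK and -0.06 in MEP for the JQ1 course, and -0.22 after DMSO and -0.32 after JQ1 for MEP against LSK, where the median gene is 0 by construction.

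**Figure D1:**
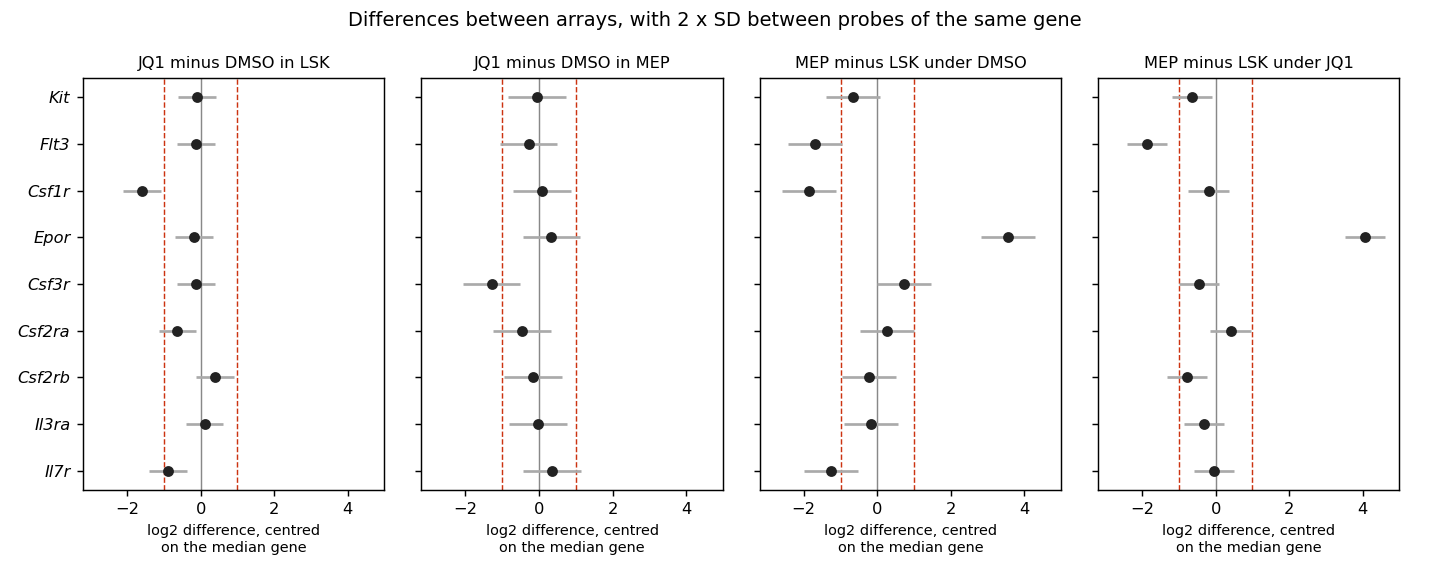
Log2 difference of the brightest probe of each of the 9 receptor genes in the 4 comparisons, relative to the median measured gene; bars are plus and minus 2 times the SD between probes of the same gene, and dashed lines mark 2-fold. Epor lies at 3.55 and 4.06 in both comparisons of MEP with LSK, Flt3 at -1.71 and -1.87, and most other receptors lie between the dashed lines.

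The difference between the JQ1 effects in the 2 cell types (MEP minus LSK) was past 2-fold for 3 receptors. Csf1r and Il7r lay on the higher side at 1.68 and 1.24, and Csf3r on the lower side at -1.17, where 3.36% of all genes were higher and 5.84% lower. Error of this difference, combined from both comparisons, was 0.47 log2. With spike-in scaling and no centring the 3 values were 0.60, 0.16 and -2.25, and without centring Csf3r read -0.89. The median over the 9 receptors was 0.04, beside 0.01 over all genes.

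Kit, the receptor of stem cell factor, read 4.45 on DMSO LSK and 4.42 on JQ1 LSK, and 3.57 on DMSO MEP and 3.85 on JQ1 MEP. It was somewhat higher on both LSK arrays, and no neighbours in this order differed beyond array error. Kit protein is part of how LSK cells are defined, so its level in these cells is set by the sort and is no finding. Relative to the median gene it differed by -0.09 and -0.06 with JQ1 in LSK and MEP, and by -0.67 and -0.65 between the cell types after DMSO and JQ1. The -0.65 was past 2 times the array error of 0.27, and the -0.67 was not past 2 times that of 0.37. Mast cells carry much Kit, and of 17 mast cell and basophil markers 8 of 14 measured were lower in MEP in both treatments. The mast cell protease Mcpt4 was lowest (-9.09 under DMSO, -7.87 under JQ1), followed by the proteases Tpsb2 and Cma1. The summed level of these markers was 608 and 573 times the 75th percentile on the DMSO and JQ1 LSK arrays and 233 and 286 on the MEP arrays. Srgn alone gave 190 and 210 of these sums on DMSO LSK and JQ1 LSK, and 159 and 195 on DMSO MEP and JQ1 MEP. The rest summed to 418, 363, 74.0 and 91.5 in the same order. The part of these markers in the Kit reading was not tested. In sorted bulk cells, fewer cells of a type and less RNA per cell cannot be told apart. Kitl, which encodes stem cell factor, was not well above background on any array.

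Flt3, the receptor that marks multipotent progenitors on the way to lymphoid and dendritic cells, read 4.50 on DMSO LSK and 4.43 on JQ1 LSK, and 2.57 on DMSO MEP and 2.63 on JQ1 MEP. Both LSK arrays were high and both MEP arrays low, and the step from JQ1 LSK down to DMSO MEP (1.60 log2 after removing each array's median-gene offset) was the only one beyond array error. Flt3 was thus 3.26-fold lower in MEP than LSK cells under DMSO and 3.65-fold lower under JQ1. With JQ1 it read -0.13 in LSK and -0.28 in MEP. A second, dimmer Flt3 probe gave the same picture, with -1.49 and -1.57 for MEP against LSK and 0.02 and -0.05 for JQ1. Stem and multipotent genes other than Flt3 had medians of -0.07 and -0.95 in MEP against LSK, with 3 of 15 and 7 of 14 lower, among them the sort antigen gene Ly6a (-4.58, -4.13), the stem cell transcription factor Hlf (-1.18, -2.29) and the endothelial adhesion gene Esam (-1.67, -1.88). One measured gene of this list was higher in each treatment, Slamf1, a surface marker of stem cells (2.35, 1.18), and Tek was higher by its bound, at least 1.33 and 1.02. Flt3l, which encodes the ligand, was measured on every array and read 0.96 and 0.80 higher in MEP, below 2-fold.

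Csf1r, the receptor that monocytes and macrophages need, read 5.35 on DMSO LSK and 3.82 on JQ1 LSK, and 3.27 on DMSO MEP and 3.69 on JQ1 MEP. The DMSO LSK array was high and the other three were low, and the gap from DMSO LSK to JQ1 LSK was the only one between neighbours beyond array error. With JQ1, Csf1r was 3.02-fold lower in LSK and differed by 0.09 log2 in MEP. MEP against LSK was 3.64-fold lower under DMSO and -0.19 log2 under JQ1. Both of the lower values are taken against the DMSO LSK array, which these comparisons share.

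The 3 Csf1r probes did not move alike. A second probe read 0.46, -1.33, -1.47 and -1.33 in the same order of arrays, and so was also high on DMSO LSK, with -1.86 for JQ1 in LSK. The other read 0.55, 0.46, 0.54 and 0.04 and was lowest on JQ1 MEP, with -0.15 for JQ1 in LSK and -0.84 in MEP. The mean over the probes was -1.20 for JQ1 in LSK and -1.14 for MEP against LSK under DMSO, and the difference of the JQ1 effects was then 0.91, under 2-fold. Where each probe lies in the transcript is not known here.

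Other genes of monocytes and dendritic cells were also lower on the JQ1 LSK array. Of 15 such markers on the array, leaving out Csf1r and Flt3, 8 of 14 measured were lower by 2-fold, 0 were higher and all 14 lay below the median gene. F13a1, the coagulation factor made by monocytes, read -2.33, the lymphocyte antigen Ly86 -2.32, the perforin-like Mpeg1 -1.69 and the monocyte factor Irf8 -1.47. Their median was -1.27 in LSK and -0.44 in MEP with JQ1, and -0.96 and -0.33 between the cell types after DMSO and JQ1. Their summed level was 484 and 326 times the 75th percentile on DMSO LSK and JQ1 LSK, and 464 and 278 on DMSO MEP and JQ1 MEP. Siglech, a marker of plasmacytoid dendritic cells, gave 261, 253, 370 and 191 of these sums, and the rest summed to 222, 72.6, 94.2 and 86.8. Whether monocyte-committed cells within the sort carry the Csf1r difference was not tested. Csf1, the ligand, read -0.01 for JQ1 in LSK and -0.51 in MEP, and Il34 was above background on 1 array only.

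**Figure D2:**
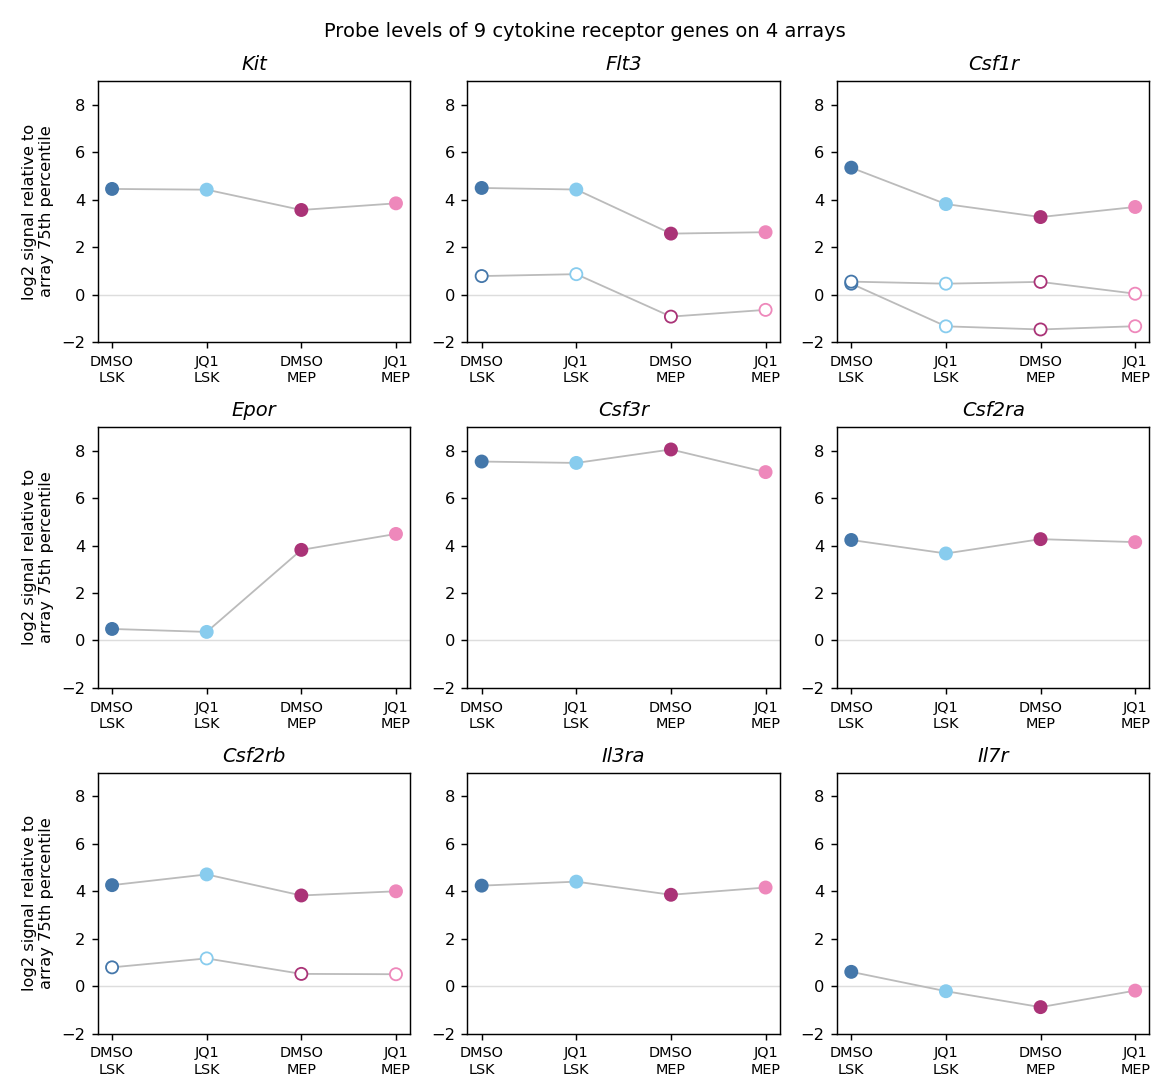
Level of each receptor probe on the 4 arrays, as log2 signal relative to the array's 75th percentile; filled points are a gene's brightest probe and open points its other probes, and lines join readings of one probe. Epor steps up and Flt3 steps down between the LSK and MEP arrays, and Csf1r is high on DMSO LSK in 2 of its 3 probes.

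Epor, the erythropoietin receptor on which red cell progenitors depend, read 0.48 on DMSO LSK and 0.36 on JQ1 LSK, and 3.82 on DMSO MEP and 4.49 on JQ1 MEP. Both MEP arrays were far above both LSK arrays, and the arrays of one cell type did not differ beyond array error. Epor was 11.7-fold higher in MEP under DMSO and 16.7-fold higher under JQ1, the widest range of the 9 receptors at 4.06 log2. The JQ1 course gave -0.19 in LSK and 0.33 in MEP. Both differences between cell types were at least 3.23 log2 under all 8 alternatives of processing.

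Epor read high in MEP together with the genes that define the red cell line. Erythroid markers other than Epor had medians of 2.82 (DMSO) and 3.55 (JQ1) for MEP against LSK, and -0.22 and 0.47 for JQ1 in LSK and in MEP. Among the largest were the carbonic anhydrase gene Car1 (5.37, 5.76), the Rhesus antigen gene Rhd (4.96, 5.48) and the water channel gene Aqp1 (4.45, 5.66). Their summed level was 196 on DMSO LSK and 204 on JQ1 LSK, and 301 on DMSO MEP and 477 on JQ1 MEP. One globin probe, Hbb-bt, gave 159, 168, 49.9 and 101 of these sums, and the rest summed to 36.7, 36.0, 251 and 376. Alas2, the first enzyme of red cell haem synthesis, was above background only on JQ1 MEP. Epb42, a red cell membrane protein gene, was not above background on the MEP arrays and at least 2.50 and 3.53 lower there than in LSK. Among factors that act on receptor genes, Klf1 read 3.79 and 4.74 in MEP against LSK and Gata1, which activates Epor, 2.61 and 3.55.

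The promoter of Epor is shown because Epor had the largest difference and erythroid factors were higher beside it. RefSeq places the window, from 250 bases before to 50 bases after the gene start, at chr9:21963527-21963826 on the minus strand of GRCm38.p6. Capitals mark a match to the GATA motif, searched as AGATAA, and one to the RUNX motif, searched as TGTGGT, both of which read here on the opposite strand.
Epor: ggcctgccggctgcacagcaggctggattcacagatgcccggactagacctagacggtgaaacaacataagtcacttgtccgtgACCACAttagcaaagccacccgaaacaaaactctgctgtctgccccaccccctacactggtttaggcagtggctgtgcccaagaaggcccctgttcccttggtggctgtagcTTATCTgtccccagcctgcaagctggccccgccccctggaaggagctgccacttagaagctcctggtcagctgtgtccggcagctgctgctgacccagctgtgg
Counted from the gene start, the GATA match begins at -54 and the RUNX match at -166. The window also holds 2 CACCC matches (searched as CCACCC, at -151 and -122) and 5 E-boxes (CANNTG), none of which overlap the capitals. On either strand, AGATAA was found in 11.2% of all 32851 promoter windows of this length, TGTGGT in 16.8%, CCACCC in 31.5% and CANNTG in 72.3%. A match describes letters and not a bound factor. Of the 7 receptors with a window, only Epor held AGATAA, and the promoters of Csf1r and Csf2rb were not searched.

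Csf3r, the receptor of granulocyte colony-stimulating factor, which drives neutrophil production, read 7.54 on DMSO LSK and 7.48 on JQ1 LSK, and 8.05 on DMSO MEP and 7.09 on JQ1 MEP. DMSO MEP was highest and JQ1 MEP lowest, but no neighbours in the order differed beyond array error. With JQ1, Csf3r was 2.45-fold lower in MEP and differed by -0.12 log2 in LSK. The difference in MEP, -1.29 log2, was past 2 times the array error of 0.39. Without centring the value in MEP was -0.95 and no longer reached 2-fold, and with scaling to the array median it was -0.54. MEP against LSK was 0.73 under DMSO and -0.46 under JQ1, so the sign differed between treatments, though both values lay within 2 times array error.

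Csf3r had the brightest member probe, with processed signals of 39067 and 43664 on DMSO LSK and JQ1 LSK, and 86364 and 31842 on DMSO MEP and JQ1 MEP. None of these spots was marked saturated. Of 372 genes with a mean level of 7 or more, 7 were lower for JQ1 in MEP and 0 higher, with a median of 0.10. Csf3r itself is counted in the 372 and in the 7. The Csf3r difference takes in the DMSO MEP array, where its signal was highest.

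Neutrophil genes lay mostly on the other side of the median gene from Csf3r. Of 17 neutrophil markers on the array, 14 were measured in MEP, with a median of 0.49 for JQ1 against DMSO, 2 higher by 2-fold and 0 lower. Those 2 were the granule genes Fcnb (1.95) and Elane (1.40). Retnlg, above background on DMSO MEP but not on JQ1 MEP, was outside the 14 and at least 1.28 lower. For MEP against LSK the medians of the measured neutrophil markers were -0.18 under DMSO and 2.0 under JQ1, over sets that differ in their genes. Under DMSO 5 of 12 measured were higher, such as the calcium-binding S100a9 (3.81), and 1 was lower, Mmp8 (-1.64). Of the 12, 7 lay below the median gene. The 12 leave out Ltf, Ngp and Fcnb, which were not above background on DMSO LSK. In MEP these were at least 3.86, 3.77 and 1.06 higher under DMSO. Under JQ1 8 of 13 were higher, S100a9 at 2.82, and 0 lower. The 13 include Ltf and Ngp but not Fcnb, which was at least 3.48 higher under JQ1. The neutrophil markers summed to 1763 and 1126 on DMSO LSK and JQ1 LSK and 1269 and 2243 on DMSO MEP and JQ1 MEP. Of these, Mpo gave 998, 579, 681 and 1146, and the mature neutrophil gene Mmp9 was not above background on any array. Monocyte and dendritic markers, other than the receptors, were lower in 4 of 14 for JQ1 in MEP and higher in 0. The 4 were Klf4 (-2.40), Cd209a (-1.45), Siglech (-1.29) and the lysozyme gene Lyz2 (-1.26). Their part in the Csf3r reading was not tested. Csf3, the ligand, was above background on DMSO LSK only.

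The Csf3r promoter is shown because PU.1, a myeloid factor, is known to act on this gene and the receptor differed by JQ1 in MEP. The window lies at chr4:126024409-126024708 on the plus strand of GRCm38.p6, and capitals mark its match to PU.1 (GAGGAA).
Csf3r: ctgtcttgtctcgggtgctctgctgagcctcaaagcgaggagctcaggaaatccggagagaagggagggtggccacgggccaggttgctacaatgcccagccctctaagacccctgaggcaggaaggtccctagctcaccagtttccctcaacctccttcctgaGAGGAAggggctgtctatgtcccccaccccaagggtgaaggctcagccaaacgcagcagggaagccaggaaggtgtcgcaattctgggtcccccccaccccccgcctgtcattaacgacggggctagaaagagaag
The match begins at -86 from the gene start. GAGGAA was found in 28.3% of all windows, so its presence is common. The window holds 3 CACCC matches and no GATA, RUNX or E-box letters. Spi1, which encodes PU.1, read -0.47 for JQ1 in MEP and -0.28 in LSK, and Cebpa read -0.36 and -0.31. Among the other windows, Kit held 1 PU.1 match and Csf2ra 2, whereas Flt3 and Il3ra held no GATA, PU.1 or RUNX letters.

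The megakaryocyte line is the other fate of MEP cells. Of 16 megakaryocyte markers, 7 of 15 measured under DMSO and 7 of 14 under JQ1 were higher in MEP, with medians of 0.97 and 0.98. Under DMSO 0 were lower, and under JQ1 1 was, the platelet adhesion gene Selp (-1.64). Epo, the ligand of Epor, was not above background on any array.

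The receptors that share the common beta chain differed little. Il3ra, the interleukin-3 chain, read 4.24 on DMSO LSK and 4.41 on JQ1 LSK, and 3.85 on DMSO MEP and 4.16 on JQ1 MEP. Its range, 0.32 log2 after removing array offsets, was the narrowest of the 9, and no neighbours in its order differed beyond array error. Relative to the median gene its 4 differences lay between -0.32 and 0.11.

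Csf2ra, the chain that binds granulocyte-macrophage colony-stimulating factor, read 4.23 on DMSO LSK and 3.66 on JQ1 LSK, and 4.27 on DMSO MEP and 4.14 on JQ1 MEP. JQ1 LSK was lowest, and no neighbours differed beyond array error. The JQ1 course gave -0.63 in LSK, past 2 times the array error of 0.26 but under 2-fold, and -0.46 in MEP. MEP against LSK was 0.25 under DMSO and 0.41 under JQ1.

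Csf2rb, the beta chain itself, read 4.26 on DMSO LSK and 4.71 on JQ1 LSK, and 3.82 on DMSO MEP and 4.0 on JQ1 MEP. JQ1 LSK was highest and both MEP arrays were lower, with no neighbours beyond array error. With JQ1 it read 0.39 in LSK and -0.16 in MEP, and MEP against LSK was -0.22 under DMSO and -0.78 under JQ1. The -0.78 was past 2 times the array error of 0.27 but under 2-fold. A second, dimmer probe gave 0.31, -0.35, -0.06 and -0.74 in the same order. Csf2rb2, the mouse copy of this gene that serves interleukin-3 alone, gave 0.33, -0.30, -0.16 and -0.80. The copies are nearly identical in sequence and their probes may not tell them apart. The ligand genes Csf2, Il3 and Il5 were not above background on any array.

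Il7r, the receptor chain that early lymphoid cells need, read 0.61 on DMSO LSK and -0.21 on JQ1 LSK, and -0.88 on DMSO MEP and -0.18 on JQ1 MEP. DMSO LSK was highest, and its gap to JQ1 LSK was the only one between neighbours beyond array error. JQ1 against DMSO was 1.84-fold lower in LSK, short of 2-fold, and 0.36 log2 in MEP. MEP against LSK was 2.41-fold lower under DMSO and -0.04 log2 under JQ1. The lower values in JQ1 LSK and in DMSO MEP are both taken against the DMSO LSK array.

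Il7r differed by less than the median B-lineage marker with JQ1 in either cell type. Of 16 B-lineage markers, 11 of 14 measured were lower for JQ1 in LSK (median -2.39) and 10 of 13 in MEP (median -1.67), with 0 higher in either. The surrogate light chain genes Vpreb3 (-2.78 in LSK, -1.87 in MEP) and Igll1 (-2.56, -2.38) were among them. Not among them were Dntt, the enzyme that adds bases at antigen receptor joins (-0.12 in LSK, 0.47 in MEP), Cd22 in LSK (-0.40) and Rag1 in MEP (-0.21). The summed level of the markers was 460 on DMSO LSK and 236 on JQ1 LSK, and 109 on DMSO MEP and 66.7 on JQ1 MEP. Dntt alone gave 183, 177, 17.4 and 30.6 of these sums, and the rest summed to 276, 59.3, 91.5 and 36.1. Pax5, which fixes the B-cell fate, was not above background on any array. Il7r was at -0.88 in LSK and at 0.36 in MEP (-0.20 there with spike-in scaling). Whether lymphoid cells within the sort carry the Il7r reading was not tested. Markers of T and NK cells, some of which also use Il7r, had medians of -0.65 in LSK and -0.06 in MEP for JQ1 against DMSO.

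The partners of Il7r differed by less than 2-fold in all 4 comparisons. Il2rg, its signalling partner, read 0.05 in both LSK and MEP with JQ1, and -0.62 and -0.64 between the cell types after DMSO and JQ1. Crlf2, which pairs with Il7r for the cytokine TSLP, read 0.04 and 0.27 for JQ1 and -0.59 and -0.38 for MEP against LSK. Il7 itself was above background on 1 array of 4.

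The Il7r promoter is shown for contrast with that of Epor, since Il7r was low in MEP cells under DMSO where Epor was high. Its window lies at chr15:9529827-9530126 on the minus strand of GRCm38.p6, and capitals mark its RUNX match (TGTGGT).
Il7r: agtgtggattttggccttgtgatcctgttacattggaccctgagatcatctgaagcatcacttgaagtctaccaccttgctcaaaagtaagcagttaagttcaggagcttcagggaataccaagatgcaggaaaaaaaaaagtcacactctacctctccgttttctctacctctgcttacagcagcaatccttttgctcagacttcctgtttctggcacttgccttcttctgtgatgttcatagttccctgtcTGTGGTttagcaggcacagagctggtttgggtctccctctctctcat
The match begins at base 4 after the gene start, and the window holds 3 E-boxes and no GATA, PU.1 or CACCC letters. Runx1 read 0.04 and -0.14 for JQ1 in LSK and MEP. Ebf1, a B-lineage factor, read -2.35 and -2.08, the largest JQ1 differences among the factors measured.

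**Figure D3:**
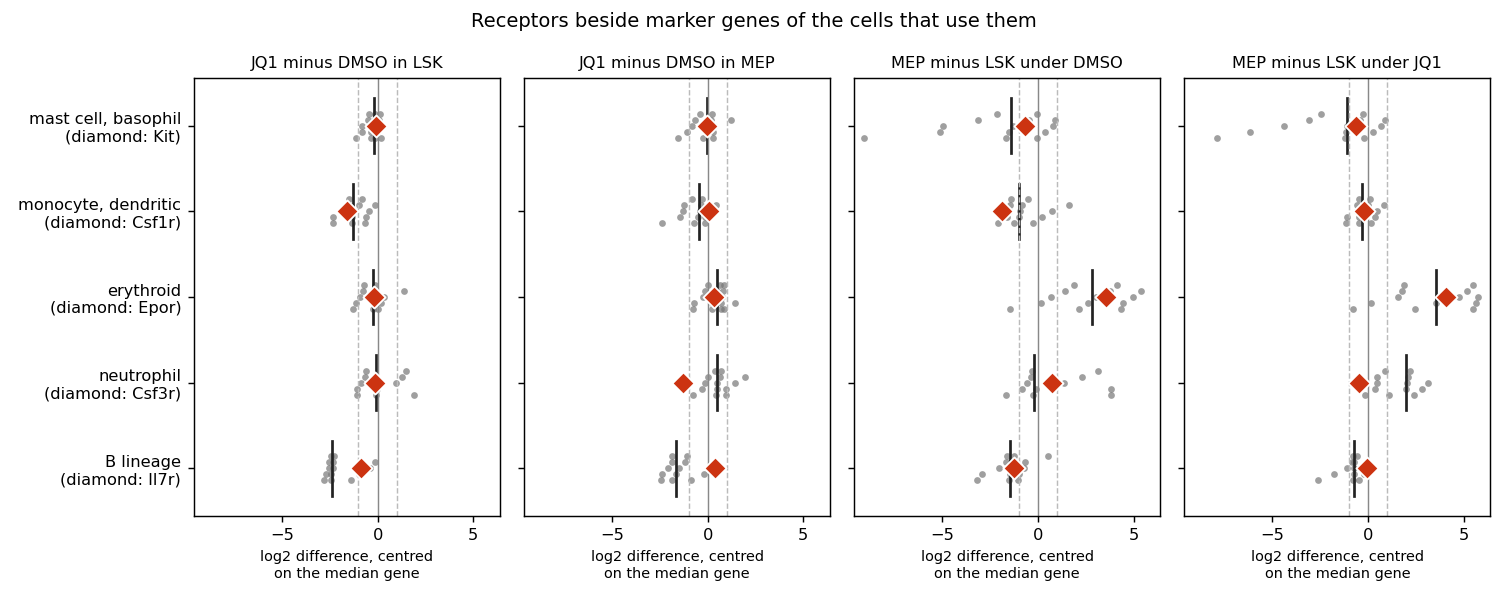
Log2 difference relative to the median measured gene for marker genes (grey points, with a black line at their median) and for the receptor those cells use (red diamond), in the 4 comparisons; dashed lines mark 2-fold. Epor lies within the erythroid markers, Csf1r within the monocyte and dendritic markers, and Il7r lies above the median of the B-lineage markers in all 4 panels, whereas Csf3r lies below that of the neutrophil markers for JQ1 in MEP.

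Other cytokine receptor chains, which were of class I or II except Il2ra, Il15ra and Il18r1, mostly lay below the median gene in MEP against LSK. Of 30 such chains on the array, 6 of 23 measured were lower under DMSO and 0 higher, with a median of -0.54, and under JQ1 5 of 25 were lower and 1 higher, with a median of -0.52. Lower in both treatments were Il12rb1 (-1.40, -1.49), Il21r (-1.38, -1.20), Il6st, the shared signal chain of the interleukin-6 family (-1.03, -1.45), and Il10ra (-1.03, -1.22). Lifr (-1.07) and Lepr (-1.03) were lower under DMSO and Il4ra (-1.47) under JQ1. The one higher chain was Il2ra, the interleukin-2 alpha chain, at 2.72 under JQ1, with levels of -2.09 and -2.90 on DMSO LSK and JQ1 LSK and -4.85 (not above background) and -0.11 on DMSO MEP and JQ1 MEP. For JQ1 against DMSO, 1 of 24 chains was lower in LSK, the interleukin-2 beta chain Il2rb (-1.60), and 0 of the 25 measured on both arrays were past 2-fold in MEP, with medians of -0.22 and -0.30. Chains not above background on 1 of the arrays have a bound. With JQ1 in MEP, Il2ra was at least 3.80 log2 higher and Il5ra, the interleukin-5 alpha chain, at least 1.45 lower. Il2ra was also at least 1.94 lower in MEP than LSK after DMSO, and Il5ra at least 1.45 lower after JQ1.

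Of 25 genes on the array listed as other receptor tyrosine kinases, 13 or 14 were measured on both arrays of each comparison. Of those measured, 0 were past 2-fold for JQ1 in either cell type, with medians of -0.17 in LSK and -0.15 in MEP. In MEP against LSK the vascular endothelial growth factor receptor Flt1 was higher under DMSO and JQ1 (1.30, 1.52). Igf2r, counted in this list although it has no kinase of its own, was higher under JQ1 (1.56). Met, the hepatocyte growth factor receptor, was lower under DMSO (-1.02). The list medians for MEP against LSK were -0.07 and -0.15. Kinases above background on 1 side only have a bound: with JQ1 in MEP, Ltk was at least 3.05 log2 higher and Mst1r at least 1.08. In MEP against LSK, Tek was at least 1.33 (DMSO) and 1.02 (JQ1) higher, Epha7 at least 1.19 under DMSO and Ltk at least 2.88 under JQ1. Of 14 ligand genes, 4 or 5 were above background on any one array, and among these Il6 was higher in MEP (2.28 under DMSO, 1.99 under JQ1).

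The kinases, STATs and adaptors below the receptors were mostly level. Of 39 on the array, 33 to 35 were measured per comparison, with medians between -0.03 and 0.10. Jak2, the kinase that carries the mutation in these mice, read 2.28 on DMSO LSK and 2.42 on JQ1 LSK, and 2.79 on DMSO MEP and 3.12 on JQ1 MEP. It was somewhat higher on both MEP arrays, by 0.73 and 0.63, and differed by 0.08 and -0.01 with JQ1. For JQ1, the adaptor Gab3 (-1.81) and the phospholipase Plcg1 (-1.48) were lower in MEP. In MEP against LSK, Irs2, an insulin receptor substrate, was higher in both treatments (1.26, 1.93), Gab3 was higher under DMSO (1.29), and Jak3 (-1.48) and Plcg1 (-1.33) were lower under JQ1.

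Negative regulators of receptor signalling were past 2-fold in 1 of the 4 comparisons between arrays. Of 31 on the array 30 were measured, and 0 were past 2-fold with JQ1 in either cell type or between the cell types after DMSO, with medians of -0.08, 0.10 and -0.16. In MEP against LSK under JQ1 the median was -0.25, and 3 were higher and 3 lower. The higher ones were the adaptors Grb10 (2.10) and Sla2 (1.49) and Cish (1.39), a STAT5 target that dampens cytokine signals. The lower ones were the suppressors of cytokine signalling Socs3 (-1.53), Socs2 (-1.16) and Socs5 (-1.05). In the difference between the JQ1 effects, MEP minus LSK, Grb10 was higher (1.16) and Socs3 lower (-1.77).

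Of 30 transcription factors of receptor genes on the array, 6 of 29 measured were higher and 1 lower in MEP under DMSO, and 6 of 28 were higher and 3 lower under JQ1, with medians of -0.07 and -0.06. Besides Klf1 and Gata1, these higher factors were Gfi1b (1.41, 1.43), the granulocyte factor Cebpe (1.37, 2.09), Zfpm1, the Gata1 partner (1.30, 1.73), and Tal1 (1.04, 1.05). The lower ones were Mitf, a mast cell and pigment cell factor (-1.16, -1.25), in both treatments, and Erg (-1.34) and Hoxa9 (-1.06) under JQ1. For JQ1, besides Ebf1 and Irf8, the stem cell transcription factor gene Mecom was higher in LSK (1.03) and, not above background on JQ1 MEP, at least 1.83 lower in MEP. The medians were 0.04 in LSK and 0.13 in MEP.

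**Figure D4:**
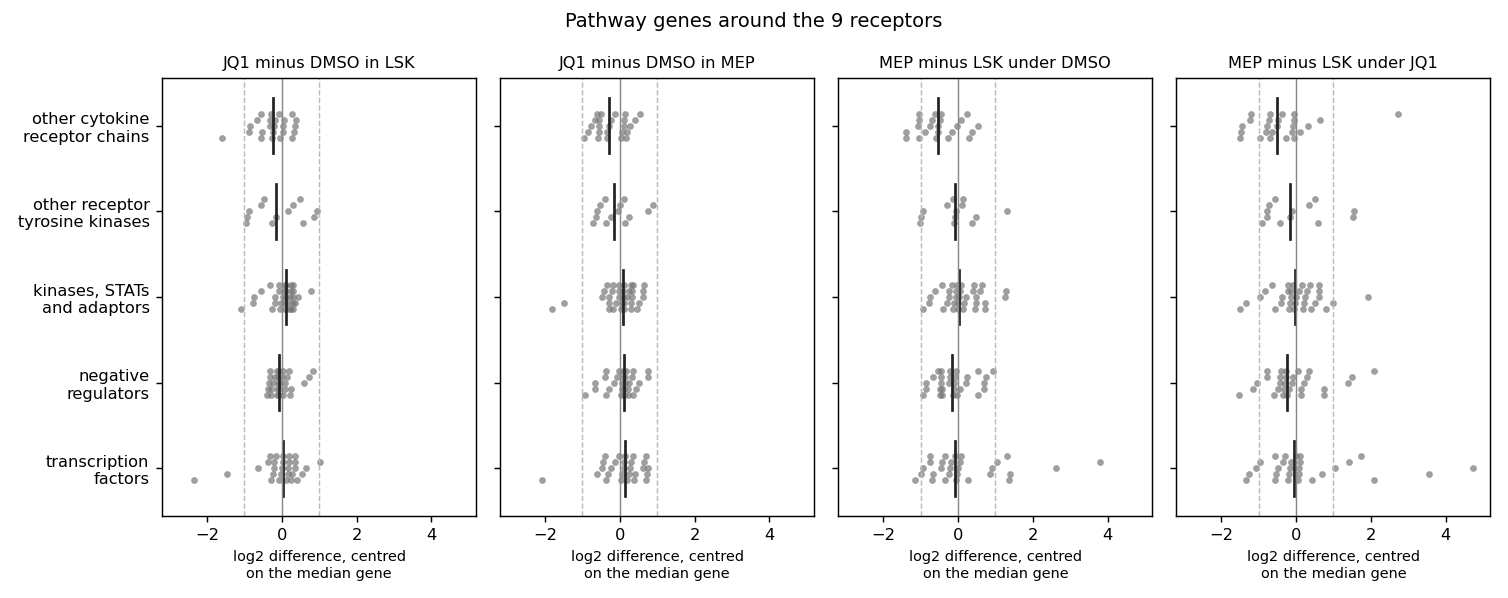
Log2 difference relative to the median measured gene for the other receptor chains, receptor tyrosine kinases, kinases with STATs and adaptors, negative regulators and transcription factors (1 point per gene, black line at the median), in the 4 comparisons; dashed lines mark 2-fold. The group medians lie between -0.54 and 0.13, and the points farthest to the right are Klf1 and Gata1 in MEP against LSK.

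Genes whose 4-array profile lay closest to that of a receptor were sought among 12010 genes, by the root mean square distance between log2 profiles each reduced by its mean. This was done for the 5 receptors with a range of at least 1 log2. For Epor the nearest were Samd14 (0.13), Hpn (0.18) and Cela1 (0.26), and 2 genes lay within 0.2. For Flt3 they were Evpl (0.06), Bok (0.07) and Gpr171 (0.11), with 27 within 0.2. For Csf1r they were Gpr37l1 (0.11), 9430069I07Rik (0.13) and Lynx1 (0.14), with 9 within 0.2. The profiles of Il7r and Csf3r were common ones, with 151 and 312 genes within 0.2. Nearest to Il7r were Tmem229b (0.0094), Nsg1 (0.07) and Lgals1 (0.07), and nearest to Csf3r were Siglech (0.0076), Hccs (0.02) and B230369F24Rik (0.03). With 4 arrays a short distance describes these arrays and nothing more.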

How the data were processed

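RNA of sorted LSK and MEP cells was measured on 4 one-colour Agilent arrays of design 028005, 1 per group. Per the labels' protocols, 20 ng of total RNA with spike-in controls was amplified with a Low Input Quick Amp kit and carried Cy3. Per the file headers, the authors used Agilent Feature Extraction 10.7.1.1, whose deposited processed signal is an intensity per spot after background subtraction. Other deposited columns are yes or no marks (well above background, saturated, outlier). The authors' deposited value table holds a linear ratio, which equals processed signal over an array-wide constant to within 1% for 100.0% of probes with a value above 1, and served as an alternative.

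Processed signals were taken to log2, averaged over spots without outlier marks and scaled by subtracting each array's 75th percentile. Transcript accessions and RefSeq GRCm38.p6 gave 1 symbol to 28026 of 55681 probes and none to 27655. The array was designed on another assembly (mm9), so positions are given only for RefSeq promoter windows. A gene is its brightest probe over the 4 arrays, measured in a comparison when well above background without an outlier mark on both arrays. The median measured gene, subtracted from differences, lay at 0.06 log2 (LSK) and 0.34 (MEP) for JQ1, and at -0.22 (DMSO) and 0.07 (JQ1) between the cell types.

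The 9 receptors and 14 other lists were chosen with earlier results of these data known. From each other list and comparison the genes past 2-fold could be named, or the 6 with the largest difference where there were more, plus Csf2rb2, Il2rg, Crlf2 and Kitl, and some genes of the lists are not reported here. Ezh2, Jak2, Spi1, Cebpa, Runx1, Flt3l, Csf1 and genes named as not above background were added after their values were seen. The number of arrays limits the precision, and no test was made. Scripts, tested on simulated data, used Python 3.11.15, pandas 2.3.3, numpy 2.4.6, R 4.3.3 and limma 3.58.1. The normexp alternative (offset 50) used median signals, since no mean signal column was at hand.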

Additional observations from a re-analysis of the deposited data

Results flagged for a closer look

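The JQ1 difference of Csf1r was -1.60 in LSK and 0.087 in MEP, and that of Il7r was -0.88 in LSK and 0.36 in MEP. Each receptor lay on opposite sides of the median gene in the 2 cell types, with 1 array per group. The MEP values of both lay within 2 times array error (0.78), so their sign is not settled. Between the cell types (MEP minus LSK), Csf3r read 0.73 after DMSO and -0.46 after JQ1, again with opposite signs. Both Csf3r values lay within 2 times array error (0.733 and 0.549). None of these differences between cell types or treatments was tested. For each receptor, 1 of its 2 values rests on DMSO MEP, the array least like the others. The JQ1 differences in LSK and the -0.46 do not use that array.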

How the results depend on the processing

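No paired analysis was possible because each group has 1 array, and leaving out an array removes its group. Over 8 alternatives, 294 of 360 receptor values moved by less than array error, 66 moved more and 0 of the called values changed sign. Part of the 294 was fixed in advance. The deposited value table is the same signal over an array-wide constant. Leaving out the centring or the background filter shifts all receptors of a comparison alike, by less than array error. These 3 settings gave 45 unmoved values each. For the 6 receptors with 1 probe, the mean over probes uses the same probe. Of those 66, 36 came with spike-in scaling, 27 with scaling to the array median and 3, all Csf1r, with the mean over probes. For JQ1 in MEP the count of receptors past 2-fold was 1 (Csf3r), but 0 without centring, 2 with scaling to the array median (Epor and Il7r, higher) and 2 with spike-in scaling (Csf3r and Csf2ra, lower). For the difference of the JQ1 effects it was 3, but 5 with spike-in scaling (Kit, Flt3, Csf3r, Csf2rb and Il3ra, all lower). The other counts stayed within 1.5 times, yet spike-in scaling called Epor, Csf3r and Csf2ra, all higher, in MEP against LSK under DMSO and so dropped Flt3, Csf1r and Il7r. These scalings shift all genes. For JQ1 in MEP the split over all genes was 123 higher and 723 lower, 372 and 367 without centring, 3035 and 172 with the array median (median gene 0.75) and 33 and 2364 with spike-ins (median gene -0.56). For JQ1 in LSK, 67 and 397 became 153 and 256, and 454 and 160, with these 2 scalings. Normexp correction gave 8 and 173 in LSK and 52 and 310 in MEP. Between the cell types after DMSO, 704 and 535 became 403 and 1170 with the array median and 4963 and 82 with spike-ins. After JQ1, 480 and 491 became 656 and 326, and 361 and 743. For the difference of the JQ1 effects, 404 and 701 became 1430 and 255, and 29 and 6744. Signals near background limit the dim genes.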
